A study of Mus musculus with 12 samples.

Results

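The EGF receptor family and its ligands were followed across the mammary tissues and breast cancer lines of WAP-SVT/t mice. The genes were taken by name: the receptors Egfr, Erbb2 and Erbb3 and the ligands Hbegf, Areg, Ereg, Btc, Tgfa and Egf, each with every probe set that the array annotation gives to it alone. Of these 9 genes, 8 had such a probe set, out of 12393 genes named on the array. They were read by 17 of the 22690 probe sets: 5 for Egfr, 3 for Tgfa, 2 each for Erbb3, Hbegf and Btc, and 1 each for Erbb2, Ereg and Egf. No probe set was named Areg in the annotation used here, so amphiregulin was not analysed here.

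RNA of 12 samples had been measured on single-color arrays, 1 array per sample, on female NMRI mice and on cell lines. WAP-SVT/t mice carry the simian virus 40 T and t antigens under the promoter of Wap, a milk protein gene, and make them in mammary epithelial cells. The lines were ME-A, ME-B-T/t, which the labels call retransformed, and ME-B, which they call a revertant. Each line had 1 array, and by their names ME-B-T/t and ME-B are related lines, so they are not independent of each other. The tissues were 3 WAP-SVT/t breast cancers, 3 WAP-SVT/t mammary glands and 3 mammary glands of NMRI mice without the transgene, all 6 glands taken on day 1 of lactation. No lactation day is given for the tumors, so the part of lactation state in tumor against gland differences could not be tested. The animals' age is not given in the sources read for this report, and the samples are numbered or named in the labels with no further word on separate mice, so each p measures the spread between these arrays. The number of arrays limits the precision.

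The EGF receptor and its relatives are receptor tyrosine kinases that pair up when a ligand binds. Their ligands are made as membrane-bound precursors that proteases release from the cell surface, and signals run through RAS and the MAP kinase ERK to immediate early genes and to feedback inhibitors of the same path. In the mammary gland the family is known for its part in duct growth, lactation and cancer.

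Values are array signals in intensity units after all arrays were scaled to 1 level. A signal under 57.5, the pooled 30th percentile, is called at the floor and was set to it before log2 values were taken. A gene was tested when at least 3 arrays of the fit lay above the pooled median of 139.9. Where a gene had several probe sets, the brightest by mean log2 value stood for it. Differences are log2 values ± standard error from limma, with Benjamini-Hochberg adjustment over all genes tested. Results for a probe set that did not stand for its gene come from a second fit over all probe sets. In tissue, a lower signal can mean fewer cells of a type or less RNA per cell, and these cannot be told apart.

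Some arrays stood apart from others of their group. The Gapdh control signal at the 3-prime end over that at the 5-prime end, a measure of RNA integrity, was 5.63, 0.982 and 0.969 in tumors 1 to 3, 10.7, 2.49 and 22.5 in WAP-SVT/t glands 1 to 3 and 12.9, 2.28 and 40.3 in NMRI glands 1 to 3. It lay between 0.753 and 0.949 in the lines. The ratio thus partly followed the groups. Every gland was at 2.28 or above, while tumors 2 and 3 and the lines were at 0.982 or below. In both kinds of gland it was highest in number 3 and lowest in number 2. The mean log2 signal of 8 skeletal muscle markers was 9.97 in tumor 1 and 6.05 to 6.26 in the other tumors. It was 10.68 in WAP-SVT/t gland 3, against 6.56 and 7.08 in the other WAP-SVT/t glands, and 9.90 to 10.93 in the NMRI glands. Results are therefore also given without NMRI gland 3, WAP-SVT/t gland 3 and tumor 1, or with the Gapdh ratio as a covariate, where this changed a call. The 10 luminal epithelial markers, which define the milk-producing cell layer, were above the floor on every tissue array.

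In tumors, Hbegf was higher and Egf was lower than in NMRI glands, while Tgfa and the receptors Egfr, Erbb2 and Erbb3 did not pass the test by the probe sets that stood for them. Another probe set of Tgfa was higher in tumors, and another of Egfr was lower than in NMRI glands. Between tumors and WAP-SVT/t glands, 1 of the 7 family genes tested passed, Hbegf, which was higher, against 2.95% of all genes. Of the 12 family probe sets tested, 3 passed, both of Hbegf and 1 of Tgfa, all higher, against 2.35% of all probe sets. Between tumors and NMRI glands, 2 of 7 passed, Hbegf higher and Egf lower, against 24.7% of all genes, and 5 of 12 probe sets, with 1 of Tgfa higher and 1 of Egfr lower added, against 23.3% of all probe sets. Between WAP-SVT/t and NMRI glands, 1 of 7 passed, Egf, which was lower, against 10.1% of all genes. The eighth gene, Ereg, was too dim to be tested. Each family probe set that passed was above the filter's 139.9 on fewer than 3 tissue arrays outside the group where it was high, so it was tested because it differed. These counts are therefore a description and support nothing, and values with no filter are given below. These 3 comparisons share arrays, so they do not count as separate evidence.

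The groups did not overlap for 1 of 7 family genes between tumors and WAP-SVT/t glands, against 19.7% of all genes. They did not overlap for 3 of 7 between tumors and NMRI glands, against 43.9%, and for 3 of 7 between WAP-SVT/t and NMRI glands, against 31%. The median log2 difference over the 7 genes was -0.02, -0.15 and -0.09 in these comparisons, and over the whole array 0, 0.02 and 0.01. These values rest on 7 genes, of which Hbegf and Egf were tested because they differed, so they are a description. Whether the family as a whole stood apart from the other genes was not tested.

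**Figure D1:**
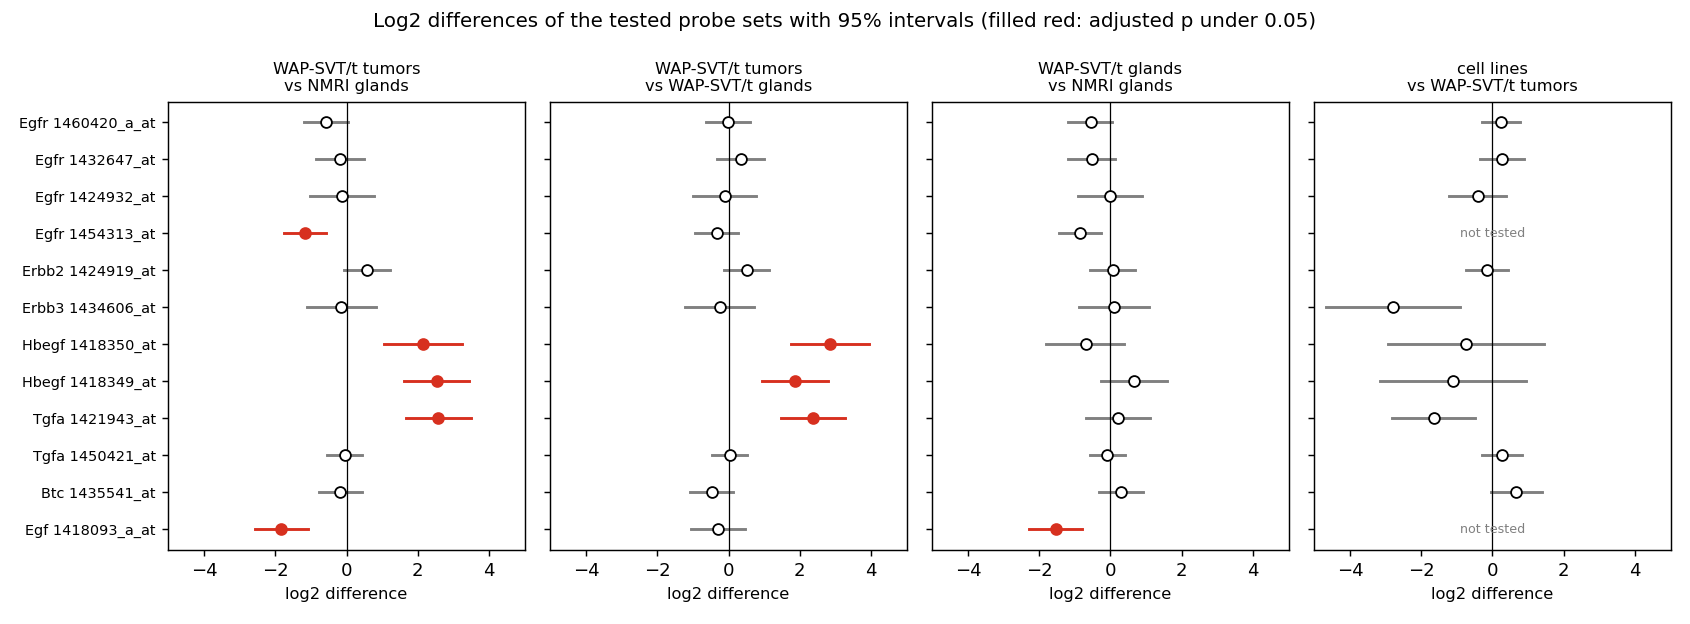
Log2 differences (x axis) of the tested EGF receptor family probe sets (y axis) in 4 comparisons, with lines for the 95% interval of the probe set fit. Filled red points passed at an adjusted p under 0.05: both Hbegf probe sets and 1 Tgfa probe set were higher in tumors than in both kinds of gland, the Egf probe set was lower in tumors and in WAP-SVT/t glands than in NMRI glands, and Egfr 1454313_at was lower in tumors than in NMRI glands.

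Egfr, the receptor for EGF, TGF-alpha and amphiregulin, was read best by probe set 1460420_a_at. Its signal was 590, 613 and 560 in tumors 1 to 3, 614, 579 and 588 in WAP-SVT/t glands 1 to 3 and 773, 649 and 1344 in NMRI glands 1 to 3. The 6 transgenic arrays lay within a narrow range, and all 3 NMRI glands lay above them, with NMRI gland 3 highest. The difference did not pass: it was -0.58 ± 0.27 for tumors against NMRI glands (limma, adjusted p = 0.146) and -0.56 ± 0.27 for WAP-SVT/t against NMRI glands (limma, adjusted p = 0.217). Tumors and WAP-SVT/t glands overlapped, with a difference of -0.02 ± 0.27 and a 95% interval of -0.62 to 0.59.

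A second Egfr probe set, 1454313_at, had 45.8 (at the floor), 80.8 and 78.8 in the tumors, 91.7, 89.1 and 89.6 in the WAP-SVT/t glands and 161, 173 and 152 in the NMRI glands. The 3 groups did not overlap on it, in the order tumors, WAP-SVT/t glands and NMRI glands from low to high. It was 2.27-fold lower in tumors than in NMRI glands (-1.18 ± 0.27, limma over all probe sets, adjusted p = 0.0104) and differed by -0.85 ± 0.27 between WAP-SVT/t and NMRI glands (adjusted p = 0.0765). It passed the filter on dim probe sets only through the 3 NMRI glands, the group where it was high, so it had to differ and lends no support to the count above. With no filter its adjusted p was 0.00427 for tumors and 0.0231 for WAP-SVT/t glands, each against NMRI glands.

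The other Egfr probe sets gave smaller differences. Probe set 1424932_at had 138 to 160 in tumors, 92.3 to 289 in WAP-SVT/t glands and 111 to 212 in NMRI glands, and 1432647_at had 123 to 185 in tumors, 96.7 to 142 in WAP-SVT/t glands and 134 to 230 in NMRI glands. Both overlapped in each tissue comparison, with adjusted p between 0.305 and 0.984 in limma over all probe sets. Probe set 1451530_at stayed at 110 or below on all but the ME-A array, where it had 112, and was not tested. The probe sets of Egfr therefore gave unequal differences between the same groups.

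Erbb2, which encodes the receptor HER2 that has no known ligand of its own, had 371, 408 and 279 in tumors 1 to 3, 249, 295 and 197 in WAP-SVT/t glands 1 to 3 and 170, 303 and 248 in NMRI glands 1 to 3. Tumors 1 and 2 were above all glands, and tumor 3 lay among them. The differences of 0.52 ± 0.28 from WAP-SVT/t glands (95% interval -0.11 to 1.14) and 0.58 ± 0.28 from NMRI glands (-0.05 to 1.20) did not pass (limma, adjusted p = 0.405 and 0.161). The cell lines, at 293 to 346, lay inside the range of the tumors.

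Erbb3, a receptor with little kinase activity that signals as the partner of ERBB2, was read by probe set 1434606_at, while its other probe set was at the floor on all 12 arrays. It had 1370, 1082 and 1044 in tumors 1 to 3, 1006, 1447 and 1792 in WAP-SVT/t glands 1 to 3 and 567, 1780 and 2089 in NMRI glands 1 to 3. The tissue groups overlapped, and NMRI gland 1 was the lowest tissue array. None of the tissue differences passed, with -0.25 ± 0.43 for tumors against WAP-SVT/t glands, -0.15 ± 0.43 between tumors and NMRI glands and 0.10 ± 0.43 between WAP-SVT/t and NMRI glands (limma, adjusted p = 0.825, 0.836 and 0.914).

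**Figure D2:**
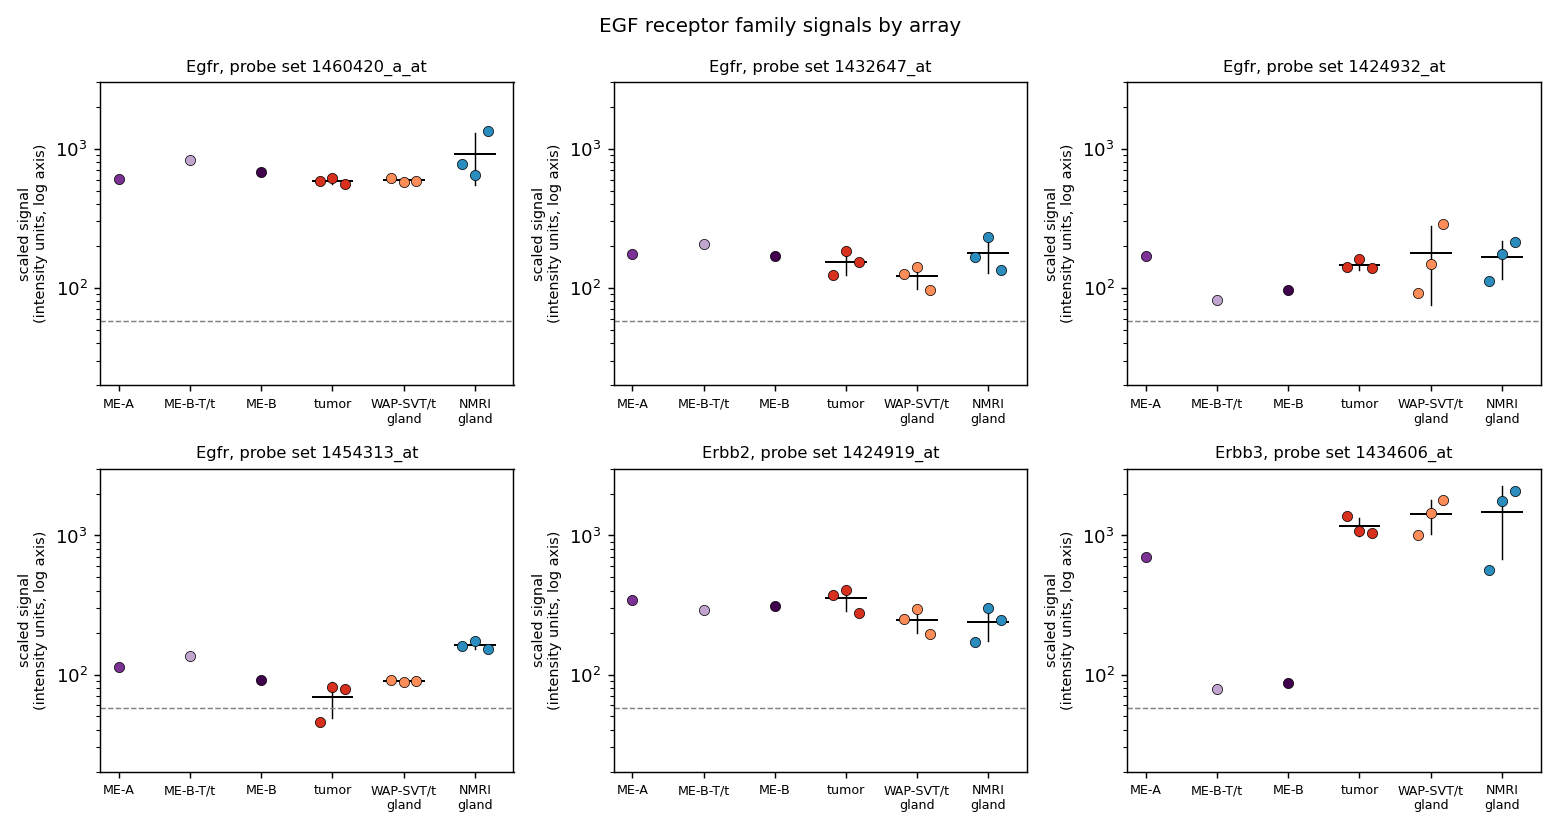
Scaled signal (y axis, intensity units, log axis) of the 6 tested receptor probe sets on each of the 12 arrays, grouped on the x axis. Points are arrays, horizontal bars and vertical lines are the mean and SD of 3 arrays, and the dashed line is the floor of 57.5; Erbb3 had 704 in ME-A, against 78.9 in ME-B-T/t and 86.7 in ME-B.

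Hbegf encodes heparin-binding EGF-like growth factor, a ligand of EGFR and ERBB4. By probe set 1418350_at it had 339, 1360 and 496 in tumors 1 to 3, against 54.8 (at the floor), 123 and 87.9 in WAP-SVT/t glands 1 to 3 and 158, 177 and 95.4 in NMRI glands 1 to 3. Every tumor was above every gland, and tumor 2 was the highest. It was 7.17-fold higher in tumors than in WAP-SVT/t glands (2.84 ± 0.49, limma, adjusted p = 0.0111), a fold that depends on the floor through gland 1, and 4.41-fold higher than in NMRI glands (2.14 ± 0.49, adjusted p = 0.00897).

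The second Hbegf probe set, 1418349_at, had 249, 653 and 278 in tumors 1 to 3, against 71.7, 154 and 83.3 in WAP-SVT/t glands 1 to 3 and 29.0 (at the floor), 70.9 and 57.1 (at the floor) in NMRI glands 1 to 3. Tumors were again above all glands, by 3.66-fold over WAP-SVT/t glands (1.87 ± 0.42, limma over all probe sets, adjusted p = 0.0462) and 5.78-fold over NMRI glands (2.53 ± 0.42, adjusted p = 0.00200), a fold that depends on the floor through NMRI glands 1 and 3. Between WAP-SVT/t and NMRI glands the probe sets differed in sign, with -0.70 ± 0.49 for 1418350_at and 0.66 ± 0.42 for 1418349_at, and neither passed (adjusted p = 0.393 over genes and 0.355 over probe sets).

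By probe set 1418350_at, the tumor call of Hbegf against WAP-SVT/t glands passed in 22 of 25 alternatives. It did not pass without WAP-SVT/t gland 1 (2.56, adjusted p = 0.0513), with no filter on dim genes (0.115) or with the Gapdh ratio as a covariate (2.22, 0.0636). By 1418349_at the same call passed in 8 of 22 alternatives, with adjusted p from 0.0168 to 0.194 in limma, and in 22 of 22 over NMRI glands. Outside the tumors, 2 arrays were above the filter for 1418350_at and 1 for 1418349_at. With no filter, the adjusted p against NMRI glands was 0.0496 for 1418350_at and 0.0159 for 1418349_at. With the Gapdh covariate the call of 1418350_at against NMRI glands was lost too (1.43, 0.0758). Without NMRI gland 3, WAP-SVT/t gland 3 and tumor 1 the differences were 3.29 and 2.30 (adjusted p = 0.0187 and 0.0199). Macrophages are a known source of HB-EGF, and the mean log2 signal of 8 macrophage markers was 9.71 to 10.12 in tumors, 9.13 to 10.06 in WAP-SVT/t glands and 8.59 to 8.74 in NMRI glands. These markers were above the floor on every tissue array, and their part in the Hbegf result was not tested.

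Tgfa encodes transforming growth factor alpha, a ligand of EGFR. Its probe sets did not agree. Probe set 1421943_at had 1196, 550 and 351 in tumors 1 to 3, against 105, 167 and 94.9 in WAP-SVT/t glands 1 to 3 and 110, 93.7 and 105 in NMRI glands 1 to 3. All 3 tumors were above all 6 glands, tumor 1 most. The signal was 5.18-fold higher in tumors than in WAP-SVT/t glands (2.37 ± 0.41, limma over all probe sets, adjusted p = 0.0170) and 5.98-fold higher than in NMRI glands (2.58 ± 0.41, adjusted p = 0.00168).

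Probe set 1450421_at was slightly brighter by mean log2 value over the tissue arrays, and so stood for Tgfa there. By mean signal 1421943_at was the brighter one in tumors, with 699 against 222, and the dimmer one in both kinds of gland. Probe set 1450421_at had 188 to 255 in tumors, 202 to 222 in WAP-SVT/t glands and 209 to 241 in NMRI glands. It was nearly level over all 12 arrays, and the tumor differences were 0.04 ± 0.22 and -0.05 ± 0.22 (limma, adjusted p = 0.962 and 0.892). A further probe set, 1421942_s_at, had 81.2, 165 and 97.4 in tumors, 39.1 (at the floor), 80.2 and 62.6 in WAP-SVT/t glands and 130, 108 and 88.4 in NMRI glands, and was not tested. Against WAP-SVT/t glands, 1421943_at passed in 17 of 22 alternatives, with adjusted p from 0.0110 to 0.131. It did not pass with no filter, without WAP-SVT/t gland 1 or 3, without tumor 2, or without NMRI gland 3, WAP-SVT/t gland 3 and tumor 1 together (1.73, 0.0682). Against NMRI glands it passed in 22 of 22. Outside the tumors 1 array was above the filter for it, and with no filter its adjusted p was 0.131 against WAP-SVT/t glands and 0.0162 against NMRI glands.

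Egf encodes epidermal growth factor, which is secreted into milk. Its only probe set, 1418093_a_at, had 63.4, 90.4 and 86.0 in tumors 1 to 3, 82.1, 94.3 and 115 in WAP-SVT/t glands 1 to 3 and 440, 257 and 194 in NMRI glands 1 to 3. Each NMRI gland was above all transgenic arrays, and tumors and WAP-SVT/t glands overlapped. Egf was 3.54-fold lower in tumors than in NMRI glands (-1.83 ± 0.33, limma, adjusted p = 0.00284) and 2.91-fold lower in WAP-SVT/t than in NMRI glands (-1.54 ± 0.33, adjusted p = 0.0142). The difference of -0.29 ± 0.33 between tumors and WAP-SVT/t glands did not pass (adjusted p = 0.722). The lactation state of the tumors is not given, and its part in the Egf result was not tested.

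Egf, too, passed the filter on dim genes only through the 3 NMRI glands, so it had to differ in order to be tested, and it lends no support to the family's counts. With no filter, against NMRI glands, its adjusted p was 0.0130 for tumors and 0.0411 for WAP-SVT/t glands. Leaving out any NMRI gland took it below the filter, and without WAP-SVT/t gland 1 the gland difference was -1.43 (adjusted p = 0.0519). The skeletal muscle marker means were 6.05 to 9.97 in tumors, 6.56 to 10.68 in WAP-SVT/t glands and 9.90 to 10.93 in NMRI glands, and their part in the Egf result was not tested. Luminal markers averaged 10.80 to 11.29 in tumors, 10.95 to 11.36 in WAP-SVT/t glands and 10.93 to 11.83 in NMRI glands on the log2 scale, and none of the 10 was at the floor in any of the 3 groups.

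The promoters of Tgfa and Egf are shown because, against NMRI glands, tumors were higher for Tgfa by 1421943_at and lower for Egf. Both sequences run from 250 bases before to 50 bases after the annotated start, are credited to RefSeq on GRCm38.p6, and have motif matches in capitals. Tgfa lies on the plus strand at chr6:86194972-86195271 and Egf on the minus strand at chr3:129755273-129755572. RefSeq gives Egf a second start on that strand, with its window at chr3:129725037-129725336, which is not printed. The promoters of Hbegf, also higher in tumors than in NMRI glands, and of Egfr, lower by 1454313_at, are not shown.
Tgfa: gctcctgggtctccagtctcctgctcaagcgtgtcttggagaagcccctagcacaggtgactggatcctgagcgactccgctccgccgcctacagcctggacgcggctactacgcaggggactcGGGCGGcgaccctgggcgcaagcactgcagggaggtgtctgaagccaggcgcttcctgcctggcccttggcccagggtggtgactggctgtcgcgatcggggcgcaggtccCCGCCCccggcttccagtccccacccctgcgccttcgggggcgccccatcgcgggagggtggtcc
Egf: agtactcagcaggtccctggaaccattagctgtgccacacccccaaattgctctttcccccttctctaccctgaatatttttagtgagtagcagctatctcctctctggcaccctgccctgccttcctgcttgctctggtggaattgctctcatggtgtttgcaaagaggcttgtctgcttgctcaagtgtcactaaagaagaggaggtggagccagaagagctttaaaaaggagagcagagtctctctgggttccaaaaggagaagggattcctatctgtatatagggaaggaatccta

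Both runs in capitals in the Tgfa sequence are matches of the GC box GGGCGG on either strand, which 35.7% of 32851 promoters of this length hold. The Egf sequence, like the second Egf window, held no match of the GC box or of the AP-1 site TGANTCA, the STAT site TTCNNNGAA, the TATA box TATAAA or the E-box CACGTG, searched on both strands with overlaps allowed. These were found in 7.81%, 8.3%, 13.6% and 7.15% of promoters. The GC content was 70.7% for Tgfa, 49% for the Egf sequence and 52.3% for the second Egf window, against a median of 52.7%. A match is a description of letters and not of binding.

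Btc encodes betacellulin, a ligand of EGFR and ERBB4. Probe set 1435541_at had 108, 149 and 200 in tumors 1 to 3, 198, 183 and 236 in WAP-SVT/t glands 1 to 3 and 170, 152 and 178 in NMRI glands 1 to 3. The 3 WAP-SVT/t glands lay above the 3 NMRI glands by a small margin, and the tumors overlapped both. No difference passed, with -0.47 ± 0.27, -0.17 ± 0.27 and 0.30 ± 0.27 for tumors against WAP-SVT/t glands, tumors against NMRI glands and WAP-SVT/t against NMRI glands (limma, adjusted p = 0.430, 0.683 and 0.534). Its other probe set was at the floor on all 12 arrays. Ereg, which encodes epiregulin, was at the floor on 11 of 12 arrays and had 118 in tumor 2, the tumor with the most Hbegf.

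**Figure D3:**
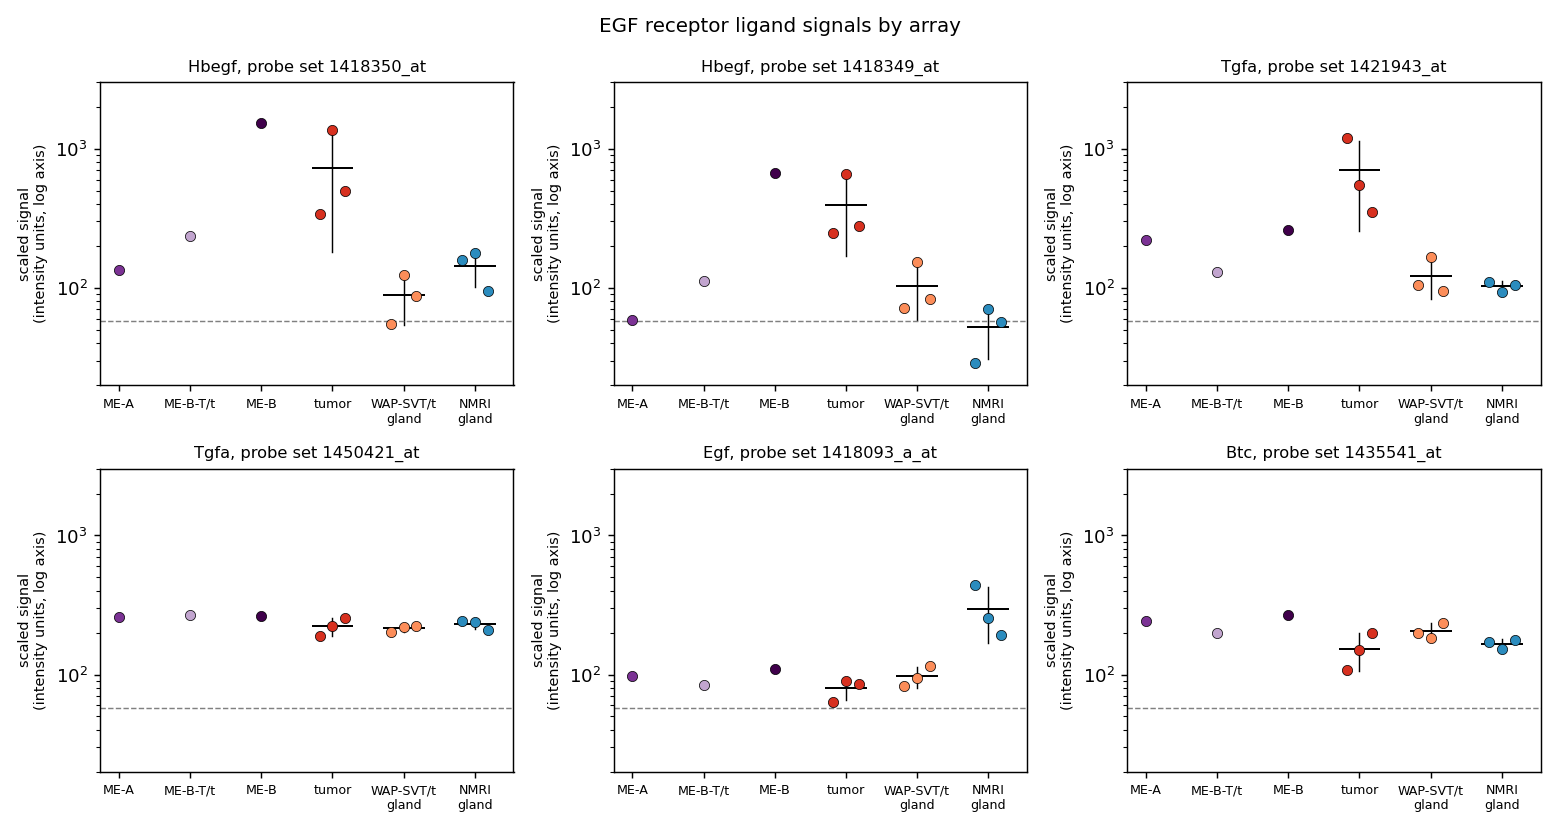
Scaled signal (y axis, intensity units, log axis) of 6 ligand probe sets on each of the 12 arrays, grouped on the x axis. Points are arrays, horizontal bars and vertical lines are the mean and SD of 3 arrays, and the dashed line is the floor of 57.5; the 3 tumors lie above all glands for both Hbegf probe sets and for Tgfa 1421943_at, and the 3 NMRI glands lie above all other arrays for Egf.

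A list of 73 other genes of the path was set beside the family, covering further receptors and ligands, ligand processing, adaptors and kinases, negative regulators and response genes. Of these, 60 had a probe set and 47 were tested in tissue. Tumors had 3 higher and 0 lower than WAP-SVT/t glands, against 1.24% of all genes higher, with a median log2 difference of 0.34 against 0 over all genes. Of those 3, Etv5 passed the filter only through the 3 tumors, which leaves 2 that did not depend on it. Tumors had 13 higher and 0 lower than NMRI glands, a share to be read against 12.9% of all genes higher and 11.8% lower, with a median of 0.46 against 0.02. WAP-SVT/t glands had 2 higher and 1 lower than NMRI glands, against 6.09% and 4.05% of all genes, with a median of 0.10 against 0.01. The path list was chosen with earlier results of these data known, so its counts and medians are a description and support nothing.

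By role, the calls in tumors over NMRI glands are read against the 12.9% of all genes that were higher, and differences between roles were not tested. The counts and medians by role are likewise a description and support nothing. Of the negative regulators, 6 of 15 tested rose, with a median difference of 0.96. Of the response genes, 6 of 13 rose, with a median of 1.26, but of these Etv5 passed the filter only through the 3 tumors and Egr2 only through 2 tumors and 1 WAP-SVT/t gland, which leaves 4 that did not depend on it. Among adaptors and kinases it was 1 of 15, with a median of -0.05, and among the genes of ligand processing 0 of 4, with a median of 0.46. The called adaptor gene was Rasa1, which encodes a GTPase-activating protein that turns RAS off.

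Dusp6, which encodes a phosphatase of ERK, had 3772, 2882 and 1440 in tumors 1 to 3, against 334, 463 and 1092 in WAP-SVT/t glands 1 to 3 and 271, 506 and 500 in NMRI glands 1 to 3. Every tumor was above every gland. It was 4.53-fold higher than in WAP-SVT/t glands (2.18 ± 0.48, limma, adjusted p = 0.0348) and 6.11-fold higher than in NMRI glands (2.61 ± 0.48, adjusted p = 0.00276). The call against WAP-SVT/t glands held in 15 of 25 alternatives. These include only 3 of the 9 fits with 1 array left out.

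Etv5, an ETS transcription factor, had 293, 419 and 291 in tumors 1 to 3, against 51.9, 95.6 and 18.6 in WAP-SVT/t glands 1 to 3 and 38.2, 108 and 30.1 in NMRI glands 1 to 3. In each kind of gland 2 arrays were at the floor, and all tumors were above it and above the glands. The fold was 4.84 over WAP-SVT/t glands (limma, adjusted p = 0.00626) and 4.64 over NMRI glands (adjusted p = 0.00113). Both folds depend on the floor. Etv5 passed the filter only through the 3 tumors, so it had to differ in order to be tested, and leaving out any tumor took it below the filter. With no filter its adjusted p was 0.0468 against WAP-SVT/t glands and 0.00736 against NMRI glands.

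Spry1, which encodes an inhibitor of receptor tyrosine kinase signals, had 492, 707 and 964 in tumors 1 to 3, against 268, 281 and 341 in WAP-SVT/t glands 1 to 3 and 375, 357 and 339 in NMRI glands 1 to 3. Tumors were above all glands. It was 2.36-fold higher than in WAP-SVT/t glands (1.24 ± 0.27, limma, adjusted p = 0.0333) and 1.95-fold higher than in NMRI glands (0.96 ± 0.27, adjusted p = 0.0229). These calls held in 13 and 18 of 25 alternatives. Of the 9 fits with 1 array left out, they held in only 1 and 4. With the Gapdh ratio as a covariate, the path list had 1 call in tumors against WAP-SVT/t glands, and 3 without it.

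Spred1, an inhibitor of the RAS to RAF step, had 858, 616 and 615 in tumors 1 to 3, 283, 337 and 428 in WAP-SVT/t glands 1 to 3 and 132, 134 and 190 in NMRI glands 1 to 3. The 3 groups were separate and in that order from high to low. It was 4.59-fold higher in tumors than in NMRI glands (2.20 ± 0.26, limma, adjusted p = 0.000182) and 2.30-fold higher in WAP-SVT/t than in NMRI glands (1.20 ± 0.26, adjusted p = 0.0146). The gland call was lost without NMRI gland 1 (1.11, adjusted p = 0.0708) or NMRI gland 2 (1.12, 0.0654).

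Egr1, an immediate early transcription factor, had 4206, 2481 and 2581 in tumors 1 to 3, 1871, 3222 and 4069 in WAP-SVT/t glands 1 to 3 and 386, 832 and 1132 in NMRI glands 1 to 3. All transgenic arrays were above all NMRI glands, by 4.20-fold in tumors (2.07 ± 0.41, limma, adjusted p = 0.00443) and 4.07-fold in WAP-SVT/t glands (2.03 ± 0.41, adjusted p = 0.0103). The Egr1 call in WAP-SVT/t against NMRI glands held in 25 of 26 alternatives. The kinase gene Src was 1.94-fold lower in WAP-SVT/t than in NMRI glands (-0.96 ± 0.25, adjusted p = 0.0341), with 310, 238 and 183 in WAP-SVT/t glands 1 to 3, against 421, 560 and 420 in NMRI glands 1 to 3. That call held in 17 of 26 alternatives, among them 4 of the 9 fits with 1 array left out.

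Phlda1 was the path gene with the highest fold among those called in tumors over NMRI glands, with 3525, 2633 and 2402 in tumors 1 to 3, against 214, 616 and 495 in NMRI glands 1 to 3. It was 6.99-fold higher (2.81 ± 0.47, limma, adjusted p = 0.00175). The remaining calls in that comparison were 2.74-fold for Socs5, which lowers EGFR levels, 3.66-fold for the early gene Ier2, 2.40-fold for Myc, 1.97-fold for Rasa1, 2.14-fold each for Spred2 and Spry2 and 2.10-fold for Egr2. Their adjusted p values ran from 0.00194 for Socs5 to 0.0435 for Egr2, and the Egr2 call held in 6 of 18 alternatives. The calls of Spry2, Spred2, Rasa1 and Ier2 held in 20, 21, 22 and 23 of 25 alternatives. By the median over probe sets, Spry2 and Spred2 differed by 0.45 and 0.34 and did not pass (limma, adjusted p = 0.22 and 0.281).

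**Figure D4:**
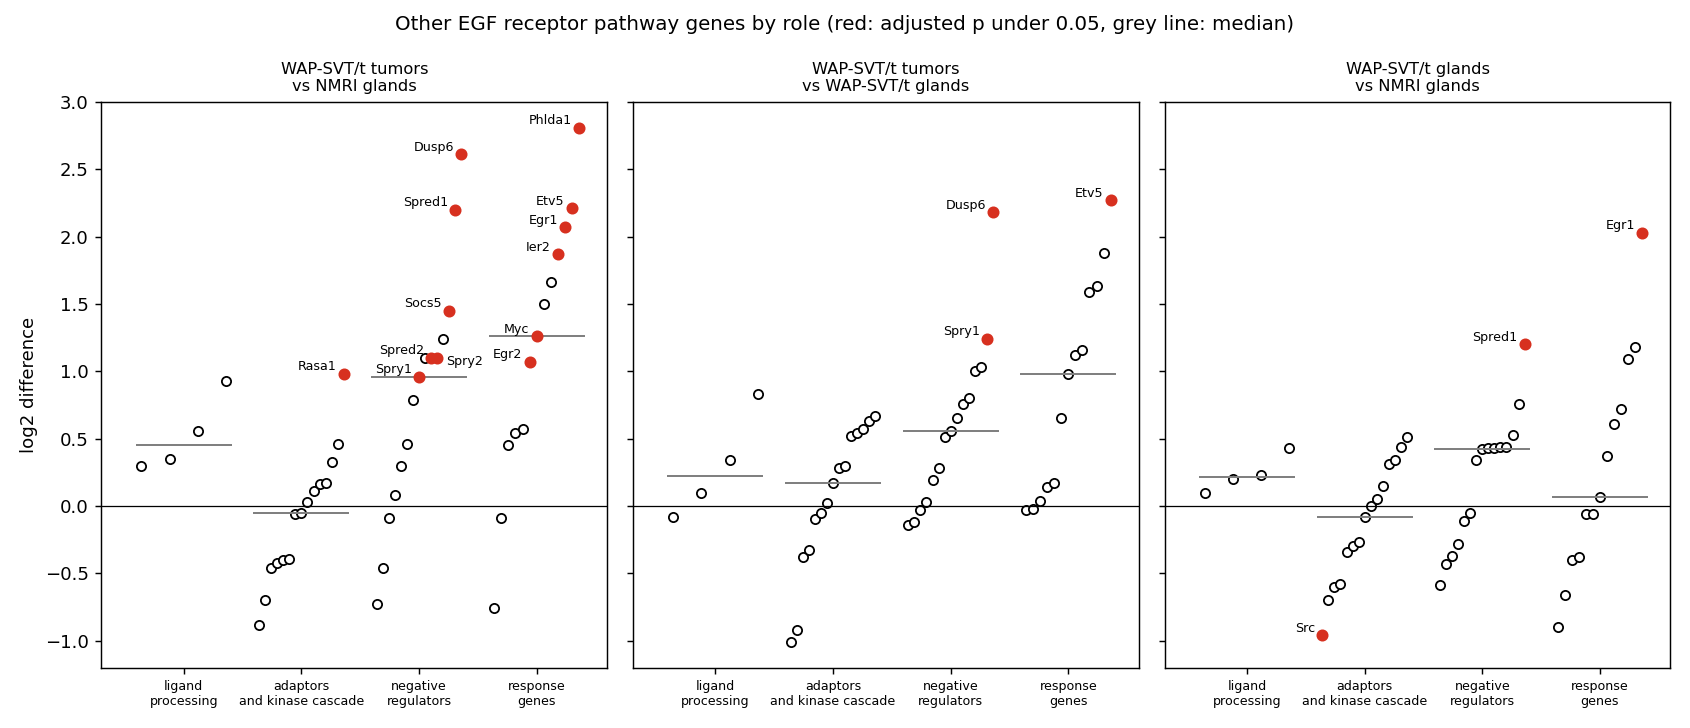
Log2 differences (y axis) of the tested path genes outside the family, sorted within 4 roles (x axis), in 3 tissue comparisons. Points are genes, filled red and named where the adjusted p was under 0.05, and grey lines are medians; in tumors over NMRI glands 13 genes passed, all of them higher.

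Of the further receptor and ligands in the list, Erbb4, which binds HB-EGF and betacellulin, was at the floor on all 12 arrays, as was the neuregulin gene Nrg3 by both of its probe sets. Nrg4 ranged from 40 to 203 and the ligand gene Epgn from 38.6 to 266, and neither was tested. Basal and myoepithelial markers moved with the tumor comparisons. Of these, 6 of 6 tested were lower in tumors than in WAP-SVT/t glands, against 2.95% of all genes called in either direction. Their means over 8 markers were 6.37 to 7.03 in tumors and 8.54 to 8.75 in WAP-SVT/t glands on the log2 scale. Of the adipocyte markers, 4 of 5 tested were lower in that comparison, against the same 2.95%. Adipocyte means over the list were 6.82 to 9.13 in tumors and 10.28 to 10.84 in WAP-SVT/t glands. The part of both marker lists in the ligand and path results was not tested. The marker counts are a description, since the lists were chosen with earlier results of these data known.

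In the cell lines the receptor Erbb3 and the ligand Hbegf differed most. Erbb3 had 704 in ME-A, against 78.9 in ME-B-T/t and 86.7 in ME-B, so it was 8.92-fold and 8.12-fold higher in ME-A. Hbegf by probe set 1418350_at had 135 in ME-A, 234 in ME-B-T/t and 1536 in ME-B, so it was 6.55-fold lower in ME-B-T/t than in ME-B and 11.4-fold lower in ME-A than in ME-B. Probe set 1418349_at had 59.1, 112 and 672 in the same lines and gave 6-fold and 11.4-fold. With 1 array per line there is no test and no replicate check of these folds.

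A 4-fold difference was taken as the mark between lines. Any line above 139.9 was enough for a gene to be counted. Erbb3 was the only family gene to reach the mark in ME-A against both other lines, which 4.86% of all genes did. Only ME-A was above 139.9 for Erbb3, so Erbb3 was counted through the line where it was high. That count is a description and supports nothing. Hbegf was the only family gene to reach the mark in ME-B-T/t against ME-B, which 1.69% of all genes did. Tgfa by probe set 1421943_at had 220 in ME-A, 129 in ME-B-T/t and 261 in ME-B, 2.02-fold lower in ME-B-T/t than in ME-B. Egfr by 1460420_a_at had 601, 827 and 677, Erbb2 346, 293 and 313, Btc 243, 200 and 268 and Egf 97.4, 83.7 and 109 in the same order. Between any pair of lines Egfr by that probe set, Erbb2 and Btc differed by at most 1.38-fold.

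Against the 3 tumors as a class, the 3 lines had 0 of 6 family genes called in limma, against 2.3% of all genes. The groups did not overlap for 3 of 6, against 23.5% of all genes. Those were Erbb3 (-2.78 ± 0.80, adjusted p = 0.152), Tgfa by 1421943_at (-1.65 ± 0.49, adjusted p = 0.160) and Btc (0.67 ± 0.31, adjusted p = 0.324). Tgfa by 1450421_at went the other way, also without overlap (0.26 ± 0.24, limma over all probe sets, adjusted p = 0.614). Hbegf spread from 135 to 1536 over the lines and from 339 to 1360 over the tumors, and its difference of -0.74 ± 0.93 had a 95% interval of -2.94 to 1.45. Without ME-A the Erbb3 difference was -3.81, with an adjusted p of 0.000255. That fit leaves out the line with high Erbb3 and keeps a pair of related lines, so its p supports nothing.

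Erbb3 levels went with those of the luminal markers over the lines. The mean log2 signal of the 10 markers was 11.43 in ME-A, with none at the floor, against 6.38 in ME-B-T/t and 6.67 in ME-B, with 5 and 4 at the floor. Krt18, Epcam, Cldn7 and Elf5 were at the floor in both ME-B lines. On that scale Erbb3 had 9.46 in ME-A, 6.30 in ME-B-T/t and 6.44 in ME-B. Of the markers above the floor, Krt19 had 108 in ME-B-T/t, against 931 in ME-B. The labels call all 3 breast cancer lines. The part of the luminal markers in the Erbb3 result was not tested.

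**Figure D5:**
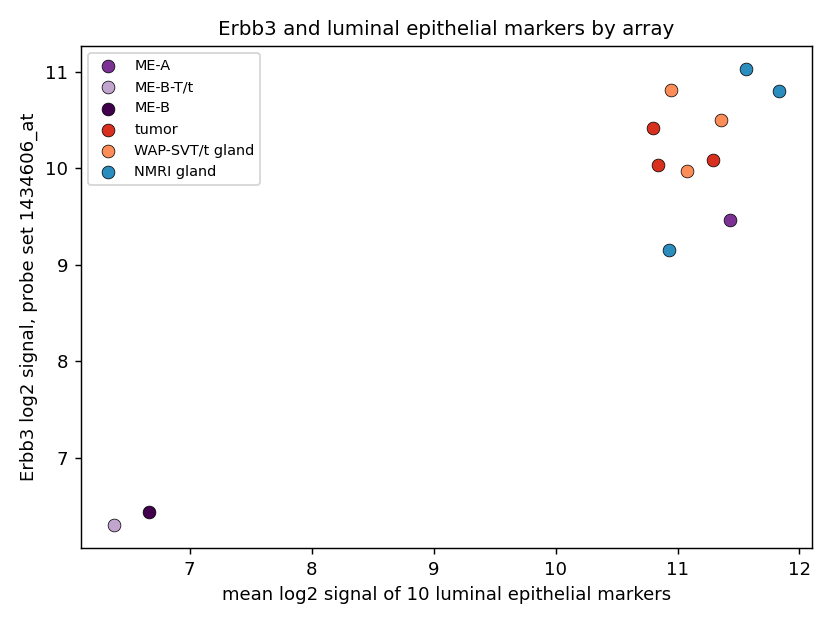
Erbb3 log2 signal (y axis) against the mean log2 signal of 10 luminal epithelial markers (x axis), 1 point per array. The ME-B-T/t and ME-B points, with 6.30 and 6.44 for Erbb3, lie apart from the ME-A point at 9.46 and from the 9 tissue arrays.

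Of the 48 path genes tested between lines and tumors, 0 were called in limma, against 2.3% of all genes. The smallest p belonged to Dusp6, with 95.2 in ME-A, 233 in ME-B-T/t and 629 in ME-B, all below the tumors' lowest value of 1440. It differed by -3.38 ± 0.69 (adjusted p = 0.0612). Ier2 differed by 0.92 (adjusted p = 0.0705) and Etv5 by -1.64 (adjusted p = 0.0829). Without ME-A all 3 passed, with adjusted p of 0.0148, 0.0206 and 0.0477, from a pair of related lines.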

How the data were processed

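The deposited values are array signals in intensity units, 22690 probe sets on each of 12 arrays, made by the authors using MAS5, per the submitters' processing notes. The sources used here do not give its version or its scaling target. Array means, trimmed by 2% of probe sets at each end, spanned 1.19-fold. Arrays were scaled to the mean of these values, the pooled 30th percentile (57.5) served as a floor, and log2 values were taken. The 64 control probe sets were left out, and no 2 arrays held identical values. Per array, 67.7% to 72.6% of probe sets were above that floor.

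Probe sets were named from the platform's annotation table: 20380 had 1 gene, 691 several and 1555 none, and those with several or none were left out. The tests used limma 3.58.1 in R 4.3.3 (lmFit and eBayes with an intensity trend, two-sided, Benjamini-Hochberg, threshold 0.05). A first fit held the 9 tissue arrays in 3 groups, and a second the lines and tumors as 2 classes of 3 arrays. The fit was tested on simulated data. Plots were made in Python 3.11.15 by matplotlib 3.10.9. The array's genome build was not used, and promoters were matched by symbol.

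Glands with the same number deviated together (correlations of deviations 0.222, 0.372 and 0.372 for numbers 1 to 3 between WAP-SVT/t and NMRI glands), so the numbers were taken to pair the glands. Tumors did not pair with either kind of gland. All family members and every path gene called in a comparison could be named, and otherwise the 3 path genes with the smallest p. The members and lists were chosen with earlier results of these data known. Alternatives changed the scaling, the floor, the filter, the choice of probe set, the arrays in the fit and the replicate block. The Gapdh covariate, leaving out 3 arrays together and the block with glands alone were added after seeing the data. Raw scans were not analysed here.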

Additional observations from a re-analysis of the deposited data

How the results depend on the processing

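The calls of Hbegf and Egf and of Tgfa by 1421943_at kept their direction under every alternative that tested them. Against WAP-SVT/t glands, tumors had 1 family gene called, but 2 with every probe set on its own or with only the 2 groups compared, 0 with no filter on dim genes or with the Gapdh ratio as a covariate, and 0 to 1 when 1 array was left out. Against NMRI glands they had 2, but 4 with every probe set on its own. Tgfa was added by the median over probe sets and with only the 2 groups compared. The count was 1 with a stricter filter, with the covariate or without NMRI gland 3, WAP-SVT/t gland 3 and tumor 1 together. It was 1 to 2 when 1 array was left out. WAP-SVT/t against NMRI glands had 1, but 0 with the stricter filter or without those arrays, and 0 to 1 when 1 array was left out, since Egf was then below the filter or, without WAP-SVT/t gland 1, at an adjusted p of 0.0519 (limma). The path list had 3 calls in tumors over WAP-SVT/t glands, but 1 with no filter, with only the 2 groups compared or with the covariate. When 1 array was left out it had 0 to 3 there, 1 to 3 in WAP-SVT/t against NMRI glands, where all arrays gave 3, and 8 to 15 in tumors against NMRI glands, where all gave 13, the 8 being without tumor 1. Lines against tumors had 0 family and 0 path genes, but 1 path gene with the 45th percentile as floor or with every probe set, and 0 to 1 family and 0 to 4 path genes when 1 array was left out, the highest of both without ME-A. The count of 1 family gene 4-fold apart in ME-A was 0 by the median over probe sets.

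Signs changed where differences were near 0 or probe sets disagreed, and none of these passed except for Tgfa. In WAP-SVT/t against NMRI glands, Tgfa went to 0.01 with deposited values and 0.06 by the median over probe sets, and Egfr 1424932_at to 0.07 with the 45th percentile as floor and 0.08 with deposited values. When 1 array was left out, the differences there ran from -0.17 to 0.25 for Erbb2, from -0.49 to 0.45 for Erbb3, from -0.04 to 0.37 for Tgfa 1421943_at and from -0.45 to 0.37 for Egfr 1424932_at. In tumors against WAP-SVT/t glands, Egfr was 0.37 by the median over probe sets and 0.26 with the covariate, Tgfa was -0.05 with quantile normalization, -0.02 with median scaling and -0.08 with the covariate, Egfr 1424932_at was 0.34 without the 3 arrays, and Egfr 1454313_at was 0 with the higher floor. When 1 array was left out they ran from -0.05 to 0.02 for Egfr, from -0.07 to 0.15 for Tgfa and from -0.50 to 0.32 for Egfr 1424932_at. In tumors against NMRI glands without the 3 arrays, Erbb3 was 0.08, Btc 0.10, Tgfa 0 and Egfr 1424932_at 0.09. Tgfa was 0.02 there with deposited values, 0.95 by the median over probe sets (limma, adjusted p = 0.0227) and 2.58 with only the 2 groups compared (limma, adjusted p = 0.00252), where 1421943_at stood for the gene. When 1 array was left out they ran from -0.74 to 0.20 for Erbb3, from -0.39 to 0.05 for Btc, from -0.16 to 0.06 for Tgfa, from -0.40 to 0.07 for Egfr 1424932_at and from -0.37 to 0.02 for Egfr 1432647_at. Apart from the choice of probe set and the arrays left out, the cause was not tested.

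With the replicate block, Egf in WAP-SVT/t against NMRI glands stayed at -1.54, with an adjusted p of 0.0266 (limma), or 0.0221 with glands alone. The block changed no call of a family gene. Among the path genes named it moved Dusp6 in tumors against WAP-SVT/t glands to an adjusted p of 0.0518 and Egr2 in tumors against NMRI glands to 0.0502 (limma), in comparisons whose numbers do not pair.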

Other observations

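Profiles like those of the family members were sought among 3298 genes outside the path list that, like the member, spanned a log2 range of 2 or more over the 12 arrays. Likeness is the mean absolute difference between profiles, each centred on its own mean, so a smaller value is more alike. The points share arrays, and the values are a description with no test. For Hbegf by probe set 1418350_at the nearest were Maff, a small MAF transcription factor, at 0.57 and Inhba, which encodes an activin subunit, at 0.59, against a median of 1.36 over all candidates. For Hbegf by 1418349_at they were Gramd4 at 0.47 and Maff at 0.50, against 1.21. For Tgfa by 1421943_at they were Spsb4 at 0.34 and Otud7a at 0.38, against 1.11. For Egf they were Tafa5 at 0.20 and Rab18, a small GTPase gene, at 0.23, against 0.99. For Erbb3 they were Slc15a2, a peptide transporter gene, at 0.33 and Rnf130 at 0.43, against 1.32.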
